A study of Drosophila melanogaster with 2 samples.

Results

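The peaks described here lie inside noncoding genes and away from protein-coding ones. Each has its summit inside an annotated transcript of a noncoding gene, outside every protein-coding transcript and over 500 bp from every protein-coding transcription start site (TSS). Of the 30000 peaks called on both replicates pooled, 760 met this rule. They come from a ChIP-seq experiment, which sequences the DNA pulled down together with a protein by an antibody. The samples were 2 biological replicates, numbered 2 and 3, of whole Drosophila melanogaster embryos aged 0 to 12 hours, from 1 transgenic line that stably carries CG7745 fused at its C-terminus to GFP. The labels' description names an antibody against GFP, while their antibody field names CG7745, and they give no second condition and no sex. The 2 replicates are separate biosamples of that line, and both were compared with the same control. Peaks were also listed for each replicate alone, and the 1874 strongest pooled peaks form the set that passed the irreproducible discovery rate (IDR), a measure of agreement between replicates. Of the 760 members, 59 (7.76%) were in the IDR set, against 6.25% of all pooled peaks. A member is called matched in a replicate where that replicate's own list has a summit within 100 bp, and 271 (35.7%) were matched in both, against 33% of all pooled peaks. Both shares were near those of all pooled peaks. Read depth is unknown.

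Noncoding genes are transcribed into RNAs that are not translated. Long noncoding RNAs (lncRNAs) are the most varied kind, and many fly lncRNAs have no known role. The small kinds include transfer RNAs (tRNAs), which carry amino acids to the ribosome, small nucleolar RNAs, which guide modification of ribosomal RNA, and small nuclear RNAs of splicing and transcription. A protein found at DNA inside a noncoding gene may bind at that gene's own start site, at an enhancer of a neighbouring gene, or at neither. Peaks do not tell these apart. Because whole embryos mix many cell types, fewer cells with binding and weaker binding in each cell cannot be told apart either.

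The DNA under the strongest members ranged widely in base composition. The windows below, read from the RefSeq Release 6 genome (dm6, plus strand, the summit and 50 bases to each side), belong to 5 of the 6 strongest members. Capitals mark any match, on either strand, to 11 short motifs searched in every window, here GAGAGA of GAGA factor, TAATTA of homeodomain proteins and GATAAG of GATA factors. In 3 of these windows no base is in capitals, since none of the searched motifs occurs in them.
lncRNA:CR31840 at chr2L:14024017-14024117: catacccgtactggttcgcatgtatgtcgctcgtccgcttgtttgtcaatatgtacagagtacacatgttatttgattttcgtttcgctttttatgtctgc
lncRNA:CR46006 at chr3L:10343993-10344093: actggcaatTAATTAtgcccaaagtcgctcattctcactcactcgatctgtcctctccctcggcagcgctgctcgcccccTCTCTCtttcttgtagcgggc
lncRNA:CR32111 at chr3L:12646242-12646342: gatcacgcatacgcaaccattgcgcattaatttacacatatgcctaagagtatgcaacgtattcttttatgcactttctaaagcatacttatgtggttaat
lncRNA:CR45973 at chr3L:20406387-20406487: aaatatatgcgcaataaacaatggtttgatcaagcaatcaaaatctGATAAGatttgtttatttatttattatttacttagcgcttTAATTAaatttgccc
lncRNA:CR44619 at chrX:12752321-12752421: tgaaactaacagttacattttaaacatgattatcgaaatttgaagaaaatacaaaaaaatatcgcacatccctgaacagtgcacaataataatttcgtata
The GC content of these windows was 41.6% at lncRNA:CR31840, 55.4% at lncRNA:CR46006, 35.6% at lncRNA:CR32111, 24.8% at lncRNA:CR45973 and 26.7% at lncRNA:CR44619. A further 4 windows of the 25 strongest members are shown as examples of windows that hold motifs. They hold TAATTA at lncRNA:CR44917 and lncRNA:CR44919, a run of GAGAGA at lncRNA:CR46004, GAGAGA with the E-box CACGTG at lncRNA:CR9162, and GAGAGA with the AP-1 site TGACTCA at lncRNA:CR44320.
lncRNA:CR44917 and lncRNA:CR44919 at chr2L:21867192-21867292: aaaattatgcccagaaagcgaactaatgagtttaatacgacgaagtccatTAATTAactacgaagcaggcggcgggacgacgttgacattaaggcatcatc
lncRNA:CR46004 at chr3L:10308196-10308296: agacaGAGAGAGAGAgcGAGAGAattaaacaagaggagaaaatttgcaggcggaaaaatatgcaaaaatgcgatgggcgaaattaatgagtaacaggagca
lncRNA:CR9162 at chr2L:6079105-6079205: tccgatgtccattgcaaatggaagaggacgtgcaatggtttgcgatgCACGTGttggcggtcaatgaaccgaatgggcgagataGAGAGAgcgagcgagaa
lncRNA:CR44320 at chr3R:26228195-26228295: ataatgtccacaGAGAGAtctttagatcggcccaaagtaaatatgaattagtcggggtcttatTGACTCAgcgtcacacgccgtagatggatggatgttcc

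The strongest member lay at the start of lncRNA:CR31840 (FBgn0051840), a gene on 2L from 14023722 to 14024099 on the minus strand. Its peak, from 14023916 to 14024317, had a pooled signal of 764, a value the peak caller assigns against the control and whose scale is not stated. It ranked 33 among all pooled peaks, with a signal of 274 (rank 38) in replicate 2 and of 503 (rank 28) in replicate 3. The summit was 32 bp downstream of the TSS, in an exon, and 2934 bp from the nearest protein-coding TSS, that of hll. Both replicates ranked it above any other member.

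The next members were weaker, and the first 3 of them lay over 1000 bp from a start of their gene. The member in lncRNA:CR44365 (2R, 13576209 to 13576632) had a pooled signal of 387, ranked 110 in replicate 2 and 187 in replicate 3, and lay 1483 bp from that gene's TSS and 2139 bp from that of CG42808. A member in an intron of lncRNA:CR46006 (3L, 10343882 to 10344302) had a signal of 350, with ranks of 169 and 211 in replicates 2 and 3, and lay 68775 bp from the nearest protein-coding TSS. One in lncRNA:CR32111 (3L, 12646168 to 12646424) had a signal of 317, with ranks of 159 and 319, and its nearest protein-coding TSS, 36661 bp away, was that of caup, an Iroquois homeobox gene. All 3 ranked high in both replicates. At lncRNA:CR45973 (3L, signal 311) the rank was 306 in replicate 2 and 249 in replicate 3. At lncRNA:CR44619 (X, signal 300.1) the ranks were 413 and 205, and at lncRNA:CR45365 (2L, signal 278) they were 387 and 256.

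Among the other genes of the 25 strongest members, 4 were picked for the known roles of their coding neighbours, after their values were seen. The member in asRNA:CR44018 (3R, signal 263) was 3683 bp from the TSS of hth, which encodes a homeodomain cofactor of Hox proteins, and ranked 2369 in replicate 2 against 206 in replicate 3. That in lncRNA:CR44810 (2R, signal 227) was 6356 bp from slbo, a C/EBP factor gene known for border cell migration, and ranked 870 and 383. Another, in lncRNA:CR9162 (2L, signal 186), was 3448 bp from Kr-h1, a zinc finger factor gene of juvenile hormone signalling, and ranked 2385 and 652. In lncRNA:CR43751 the member (2L, signal 185) was 4218 bp from aop, which encodes the ETS repressor Yan, and ranked 568 and 944. In the first 3 of these 4 members, replicate 3 held the stronger rank. The distance to a gene does not show that the peak acts on it.

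The members in the remaining genes ran from a pooled signal of 261 at lncRNA:CR44445, near the septin gene pnut, to 178 at lncRNA:CR46004. The latter gene held 2 of the 25, and 178 is the signal of the weaker. Between them came lncRNA:CR44618, near the ubiquitin ligase gene Trim9 (signal 256), lncRNA:CR44380 (246), lncRNA:CR44320 (243), lncRNA:CR44363 (225), lncRNA:CR45639 (223), lncRNA:CR44917 with lncRNA:CR44919 (219.6), lncRNA:CR43334 (217), Uhg4 (194) and lncRNA:CR46535 (179). The 25 members fell in 23 genes, and 23 of the 25 were matched in both replicates. The exceptions were those at lncRNA:CR44380 (replicate 3 rank 312) and lncRNA:CR46004 (signal 219, replicate 3 rank 393), for which replicate 2 had no summit within 100 bp. Each had a neighbouring member in the same gene that was matched in replicate 2, at rank 615 in lncRNA:CR44380 and 662 in lncRNA:CR46004. In 20 of the 25, both replicates placed the member among their 1874 strongest peaks. Of the 25, 19 had the summit in an exon of the noncoding gene and 8 within 500 bp of its TSS.

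A few lncRNA genes held many members, and of the 5 with most, chosen for that number, the densest were not the longest. lncRNA:CR46006 held 45 members over 43.95 kb, or 1.02 per kb of its territory, where territory means bases that meet the rule. lncRNA:CR43334 held 16 over 15.5 kb (1.03 per kb). lncRNA:CR32773, on X, held 38 over a span of 224 kb (0.313 per kb of territory), and lncRNA:CR44833, also on X, held 18 (0.205 per kb). lncRNA:bxd held 16 over 31.1 kb (0.534 per kb). Over the whole territory the density was 264 members per Mb, so 3 of these 5 genes were at least 2 times as dense as the whole, while lncRNA:CR44833 was below it. Choosing genes by their number of members favours dense ones, and some shorter genes were denser, such as lncRNA:CR44919 (3.43 per kb).

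The 5 genes also differed in how strong their members were. lncRNA:CR46006 members had signals from 28.7 to 350.01, with a median of 45.7, 3 of them were in the IDR set and 14 were matched in both replicates. Its other 2 IDR members had signals of 192 and 166, the weaker on nearly the same interval as the strongest. lncRNA:CR43334 is the transcription unit that contains the hairpin of bantam, a miRNA that promotes growth and blocks cell death. All 16 of its members lay in annotated exon, with a median signal of 60.7, and 8 were matched in both replicates. Its 3 IDR members had signals of 217, 175 and 143. The first ranked 972 in replicate 2 and 421 in replicate 3, the second 1297 and 1008, and the last had no match in replicate 2 and ranked 903 in replicate 3.

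None of the members of lncRNA:CR32773, lncRNA:CR44833 or lncRNA:bxd was in the IDR set. The highest signal in lncRNA:CR32773 was 105, with 5 of 38 members matched in both replicates, and in lncRNA:CR44833 it was 80.6, with 5 of 18. lncRNA:bxd is transcribed in the Bithorax complex, upstream of the Hox gene Ubx. Its members had signals from 33.8 to 95.4 with a median of 58.6, and 7 of 16 were matched in both replicates. The strongest ranked 2366 in replicate 2 and 7680 in replicate 3. Thus the median signal of the bxd members was above that of all members, 45.3, although none was in the IDR set.

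**Figure D1:**
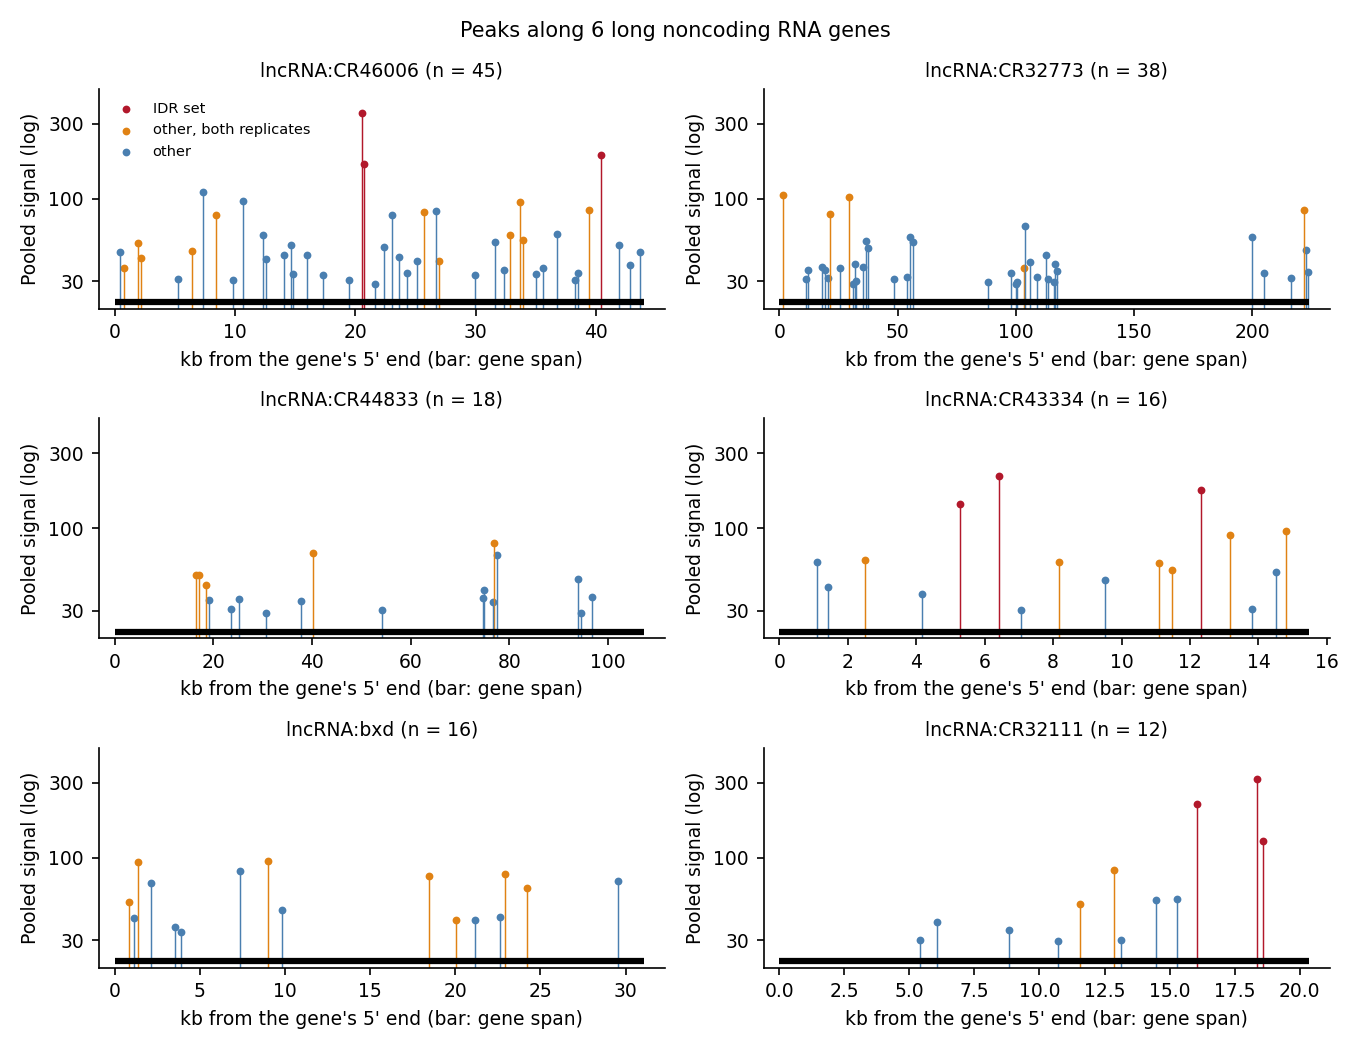
Pooled peak signal (log scale) against distance in kb from the gene's 5′ end for members in 6 lncRNA genes, coloured by IDR set, other members matched in both replicates, and other members. lncRNA:CR46006 is covered along its whole span with 3 IDR members, the 3 IDR members of lncRNA:CR32111 lie toward its 3′ end, and lncRNA:CR32773, lncRNA:CR44833 and lncRNA:bxd have none.

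Most IDR members, 41 of 59, were the only one in their gene. The other 18 fell in 8 genes that held 2 or more. These 8 were named after their values were seen. lncRNA:CR46006, lncRNA:CR32111, lncRNA:CR43334 and lncRNA:Vinr held 3 each, and lncRNA:CR44380, lncRNA:CR44917, lncRNA:CR44919 and lncRNA:CR46004 held 2 each. lncRNA:CR44917 and lncRNA:CR44919 lie on opposite strands and share both of theirs, and 26 of the 760 members in all lay in 2 genes. Many IDR summits of the 8 genes are close neighbours and need not be separate sites. The pairs lay at 16815204 and 16815407 in lncRNA:CR44380, and at 10308246 and 10308466 in lncRNA:CR46004. The shared pair of lncRNA:CR44917 and lncRNA:CR44919 lay at 21867242 and 21867471. Close pairs were also among those of lncRNA:CR46006, lncRNA:CR32111 and lncRNA:Vinr. The 3 IDR members of lncRNA:CR32111 had signals of 317, 220 and 129, and lay between 16041 and 18588 bp from its TSS. The 3 in lncRNA:Vinr, on X, had signals of 157, 140 and 122. The member at 140 ranked 13720 in replicate 2 and 1195 in replicate 3, so the replicates placed it far apart.

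By kind, most members lay in lncRNA genes, as did most of the territory. lncRNA genes held 696 of the 760 (91.6%) in 87.6% of the territory, with a median signal of 45.7 and 53 IDR members. The smaller kinds did not all follow the territory. Pseudogenes held 11 members in 218275 bases of it, and tRNA genes 11 in 10844 bases. Antisense RNA genes held 32, with a median of 43.5 and 3 IDR members. Among the antisense genes, asRNA:CR43957 on chromosome 4 held an IDR member of signal 168 at 2174 bp from the TSS of ci, which encodes the effector of Hedgehog signalling, with ranks of 634 and 1515 in replicates 2 and 3, and 5 weaker ones with signals of at most 80.1. asRNA:CR45600 on 3R held 1 of signal 156, with ranks of 867 and 952. A peak inside 2 kinds of gene counted for both.

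**Figure D2:**
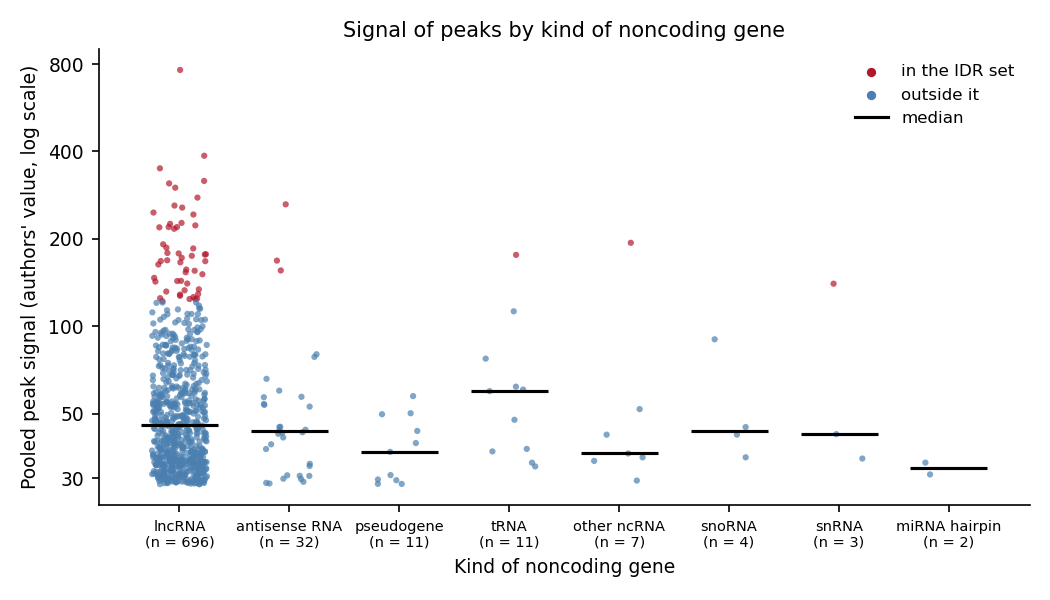
Pooled peak signal (log scale) of every member by kind of noncoding gene, with the median as a bar and IDR members in red. lncRNA genes hold 696 members up to a signal of 764, and the 11 tRNA members have a median of 59.8.

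Members in tRNA genes sat at the genes' starts, which is close to fixed by the length of a tRNA. There were 11, in 11 of the 143 tRNA genes that have territory, with summits 0 to 70 bp from the tRNA start. Their median signal was 59.8, and 6 were matched in both replicates. The strongest, at tRNA:Pro-TGG-1-2 (3R, 17619967 to 17620077), had a signal of 176 and was the only tRNA member in the IDR set. It ranked 586 in replicate 2 and 1699 in replicate 3. The window is shown to place the peak on the gene, with capitals for the 67 bases inside the tRNA gene (dm6, plus strand, RefSeq).
tRNA:Pro-TGG-1-2 at chr3R:17619927-17620027: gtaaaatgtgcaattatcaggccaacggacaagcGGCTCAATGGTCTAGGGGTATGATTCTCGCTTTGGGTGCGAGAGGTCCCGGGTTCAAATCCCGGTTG
The next were tRNA:Ile-TAT-1-1 (signal 113), with ranks of 26418 in replicate 2 and 3686 in replicate 3, tRNA:Asn-GTT-1-10 (77.4, ranks 3883 and 7819) and tRNA:Arg-TCG-2-1 (61.9, ranks 9366 and 6427). A single tRNA member was matched in neither replicate. How reads that fit several tRNA copies were placed is not given, so values at single tRNA genes, and at the snRNA and snoRNA genes that have near copies, are uncertain.

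The other small RNA genes held few members, most of them below the member median signal of 45.3. snRNA:7SKa, whose RNA holds the elongation factor P-TEFb inactive, had an IDR member of signal 140.2 (3R, 7474573 to 7474968), with a signal of 62.2 (rank 1355) in replicate 2 and of 88.5 (rank 1458) in replicate 3. Its GC content of 70.3% in the summit window was well above the member median of 42.6%. The splicing RNA genes snRNA:U2:34ABb and snRNA:U5:34A had signals of 42.5 and 35.03, each matched in replicate 3 alone. Of 4 snoRNA members, the strongest, snoRNA:Psi28S-3342 on X, had a signal of 90.2, ranked 2033 in replicate 3 and had no match in replicate 2. The others were snoRNA:Me18S-A1806 (44.9), snoRNA:Me28S-C2645c (42.3) and snoRNA:U29:54Eb (35.4). The hairpins mir-309, of a cluster known for clearing maternal mRNAs, and mir-ban, that of bantam, had signals of 33.9 and 30.9, and mir-ban was matched in neither replicate. Among the remaining kinds, hpRNA:CR18854, a hairpin RNA gene, had a signal of 36.5. All 11 pseudogene members were outside the IDR set, the strongest being CR43687 (57.5), CR33319 (50.2), CR30374 (49.8) and CR43309 (43.6).

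Of a list of known noncoding genes, 53 of 55 entries matched the annotation, as 54 genes, of which 39 had territory. Members were found in 12 of the 39 (30.8%) and IDR members in 3 (7.69%). Over all 2125 noncoding genes with territory, 380 held a member (17.9%) and 49 an IDR member (2.31%). The listed genes' median territory was 100 bases, against 514 over all noncoding genes. Of the 39, 22 are miRNA hairpins, of which 2 held a member. Beyond the hairpins, 10 of 17 did. Over all genes with territory, 327 of 1409 lncRNA genes and 2 of 86 miRNA hairpins held a member. The 17 include genes with long territories, such as lncRNA:flam (158841 bases), lncRNA:bxd (29971) and lncRNA:iab8 (26438). These shares of genes were not adjusted for length. All listed genes together held 37 of the 760 members.

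The 3 listed genes with an IDR member were Hsromega, Uhg4 and 7SKa. lncRNA:Hsromega, a heat shock RNA of nuclear speckles, held 4 members in exons. Its IDR member had a signal of 129 and ranked 1830 in replicate 2 and 1431 in replicate 3, while the one beside the TSS had a signal of 121 and ranked 697 in replicate 2 but 21851 in replicate 3. Uhg4, a host gene of snoRNAs, had its IDR member (signal 194) 27 bp from its TSS, with ranks of 583 and 752. Uhg1 and Uhg3, of the same type, peaked at 51.8 and 42.3.

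The roX RNAs of the dosage compensation complex, which coats the male X, held no IDR member. lncRNA:roX1 held 1 (signal 31.3), found in replicate 2 (rank 5811) and not in replicate 3. lncRNA:roX2 held 2, the stronger with a signal of 60.8, found in replicate 3 (rank 5356) and not in replicate 2. lncRNA:iab8, of the Bithorax complex, held 4 (at most 59.8), none of them matched in both replicates. lncRNA:acal, known from dorsal closure, held 2 (54.9 and 45.96). Apart from the 3 genes with an IDR member, then, no listed gene had a member above the 95.4 of lncRNA:bxd. lncRNA:flam, the flamenco locus that gives rise to piRNAs against transposons, held none over 159 kb, and lncRNA:let7C, the host of the let-7 cluster, none over 17.4 kb. The treatment of reads that fit several places is not given, so the lack of members in lncRNA:flam does not show a lack of binding.

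Summits were denser in this territory than in intergenic DNA, and denser in its exons than in its introns. The territory covered 2.88 Mb and held 264 summits per Mb (exact Poisson 95% interval 246 to 284), against 158 per Mb (154 to 162) in intergenic DNA, 228 (224 to 232) in introns of coding genes away from promoters and 224 over the genome. Its exons held 321 per Mb (294 to 351) and its introns 196 (173 to 222). For IDR peaks the density was 20.5 per Mb (15.6 to 26.5), against 8.85 (7.92 to 9.86) in intergenic DNA and 13.5 (12.6 to 14.6) in introns of coding genes. Noncoding exons held 43 IDR summits, 27.5 per Mb (19.9 to 37.1), and their introns 16, 12.2 per Mb (6.96 to 19.8). Exons of coding genes away from promoters held 39, or 1.51 per Mb (1.08 to 2.07). The intervals of noncoding and coding exons did not overlap. The 2 classes are not alike, since the noncoding exons keep the bases near their own genes' starts and the coding exons leave out promoters. Within 500 bp of protein-coding TSS, which the rule leaves out, the densities were higher than all of these, at 515 per Mb (504 to 527) and 47.8 IDR summits per Mb (44.4 to 51.4). These are densities of summits, and their differences were not tested. All bases of each class were counted, including stretches without any peak. On 3L, for example, the last pooled peak ended at 23095544 of 28110227 bases. How far such stretches lowered the density of each class was not computed.

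**Figure D3:**
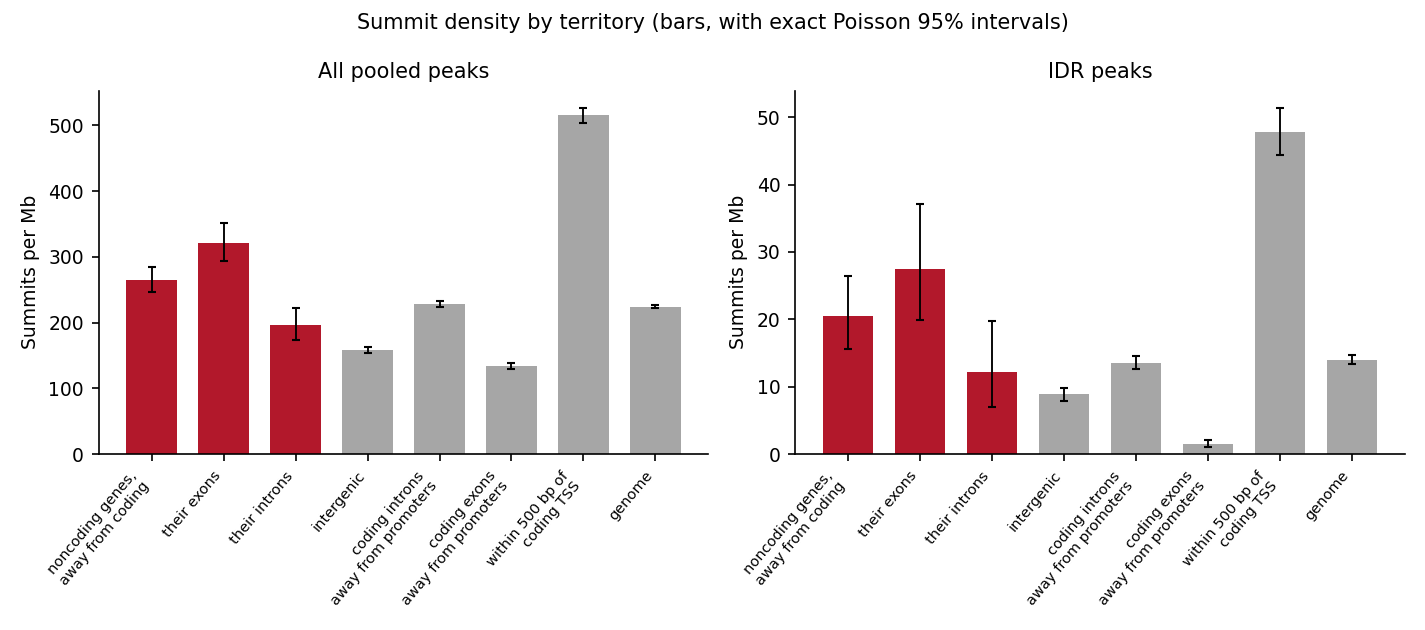
Summits per Mb (bars, with exact Poisson 95% intervals) in noncoding genes away from coding genes, their exons and their introns (red), and in intergenic DNA, coding introns and exons away from promoters, within 500 bp of coding TSS and in the genome (grey), for all pooled peaks and for IDR peaks. Noncoding exons, at 321 and 27.5 per Mb, lie below the surroundings of coding TSS, at 515 and 47.8, and above the other classes shown. The noncoding classes keep the bases near their own genes' starts.

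Most members were not at the start of their gene. Within 500 bp of a TSS of the gene they lay in were 253 members (33.3%, exact 95% interval 29.9 to 36.8%), in 27.0% of the territory. That is 326 per Mb (287 to 369) near the TSS and 241 per Mb (221 to 263) farther away. For IDR members the density near the TSS was 21.9 per Mb (12.8 to 35.1), a range that holds the whole interval farther away (14.4 to 27.0). In all, 29 of 59 IDR members lay over 1000 bp from their gene's TSS. The median distance to the nearest protein-coding TSS was 5716.5 bp, close to the 5253 bp of intergenic peaks, and 258 members (33.9%) lay over 10000 bp away.

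In signal and in replicate match the members were close to pooled peaks at large. Their median signal was 45.3 (quartiles 34.5 and 66.96), against 44.3 (34.8 and 63.5) for all pooled peaks, 44.2 for intergenic peaks and 44.1 for intronic ones away from promoters. In the IDR set were 59 (7.76%, exact 95% interval 5.96 to 9.90%), against 6.25% of all pooled peaks, a share inside that interval. A summit in each replicate's list within 100 bp was found for 271 (35.7%, interval 32.2 to 39.2%), against 33% of all pooled peaks, also inside it. Counted whether or not the other replicate had a match, replicate 2 had one for 426 (56.1%), against 54.0% of all pooled peaks. Replicate 3 had one for 500 (65.8%), against 64.95%. Only replicate 2 matched 155 (20.4%, all pooled peaks 21.0%), and only replicate 3 matched 229 (30.1%, all pooled peaks 32.0%). Neither replicate had a summit at 105 members (13.8%), against 14.01% of all pooled peaks. These are shares of peaks, with no test.

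The replicates ordered the members alike only in outline. For the 271 members matched in both, the signals of the replicates had a Spearman's rho of 0.618 and, after log2, a Pearson's r of 0.696, against 0.560 and 0.701 for the 9890 pooled peaks so matched. Within the 56 IDR members matched in both, rho was 0.366, against 0.543 for the 1764 IDR peaks so matched. These are descriptions across sites that share libraries and a control. Of the 59 IDR members, 41 (69.5%) were among the 1874 strongest peaks of replicate 2, against 70.3% of all IDR peaks. The count was 50 (84.7%) in replicate 3, against 81.9%, and 36 (61.02%) in both, against 57.8%. Replicate 2 had no match for 3 (5.08%, against 4.32% of all IDR peaks), at lncRNA:CR44380, lncRNA:CR46004 and lncRNA:CR43334. Each of these genes also holds an IDR member that was matched in replicate 2. Replicate 3 had a match for all 59, while it lacked one for 1.65% of all IDR peaks.

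**Figure D4:**
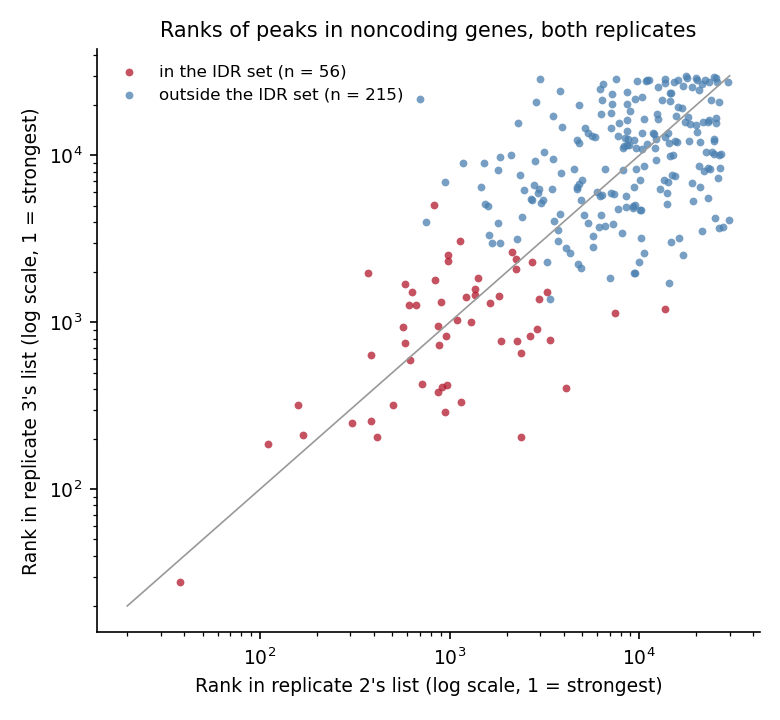
Rank in replicate 3's list against rank in replicate 2's list (log scales, 1 is strongest) for the 271 members matched in both, with the line of equal rank. The 56 IDR members so matched (red) lie at the strong end, with lncRNA:CR31840 at ranks 38 and 28 apart from the rest, and the other 215 (blue) spread widely.

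Reproducibility fell with rank as it did for all peaks. Members at pooled ranks 1 to 1874 were matched in both replicates in 94.9% of cases (all pooled peaks 94.1%), at ranks 1875 to 5000 in 79.6% (77.7%), at ranks 5001 to 10000 in 59.5% (55.4%), at ranks 10001 to 20000 in 25.4% (24.6%) and at ranks 20001 to 30000 in 5.75% (4.7%). The exact interval of each share contained the value for all pooled peaks. So the 261 members of the last class, 15 of them matched, are the least certain.

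Chromosome X held a larger share of the weak members than of the strong ones. It held 152 of the 760 (20%), but 6 of the 59 in the IDR set (10.2%, exact 95% interval 3.82 to 20.8%), while it held 14.9% of all pooled peaks and 9.45% of the IDR set. X holds 30.7% of the territory, and had 172 members per Mb. Without lncRNA:flam, whose 158841 bases hold no member, X had 210.2 per Mb, a value computed after seeing the data, so its place as the lowest arm rests on that gene: chromosome 4 had 202 per Mb from 9 members. Chromosome 3L had the highest, 394 per Mb, with 26.1% of the members and 19 IDR members. Of its 198 members, 45 lay in lncRNA:CR46006, and its density without that gene was not computed. By rank, X held 10.2% of members at ranks 1 to 1874 and 25.3% (20.1 to 31.0%) at ranks 20001 to 30000, against 17.2% of all pooled peaks at ranks 20001 to 30000. A pair of long X genes, lncRNA:CR32773 and lncRNA:CR44833, held 38 and 18 of the 152.

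**Figure D5:**
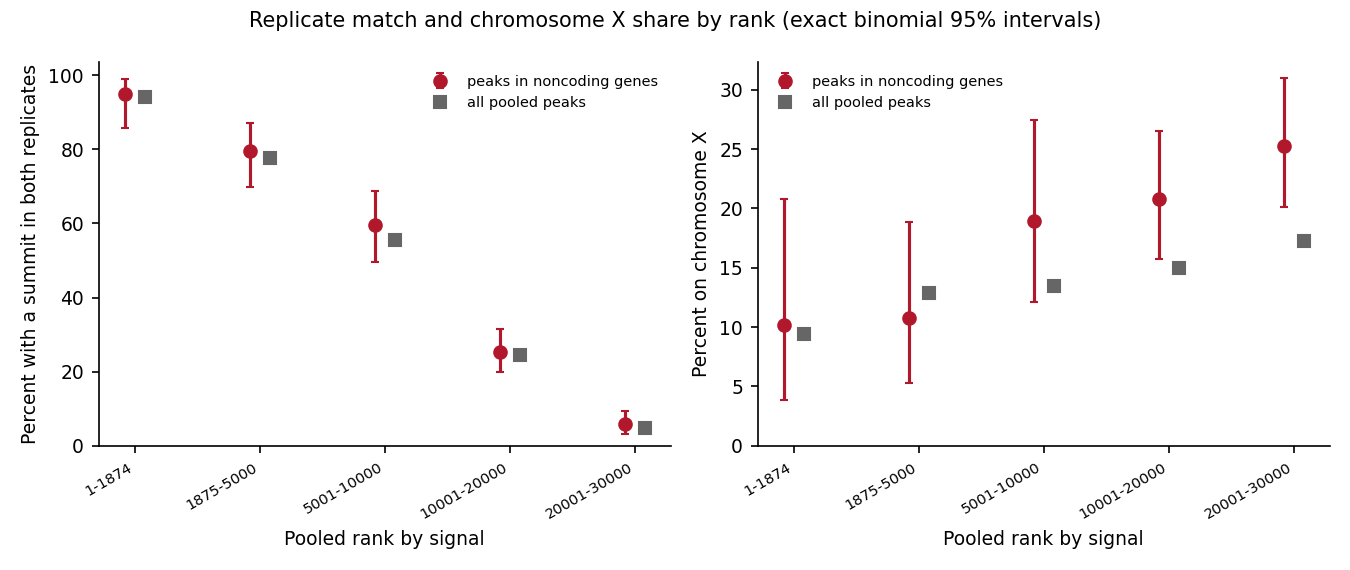
Percent of members (red, with exact binomial 95% intervals) and of all pooled peaks (grey) with a summit in both replicates (left) and on chromosome X (right), by pooled rank. The match falls alike for both, from 94.9 and 94.1% to 5.75 and 4.7%, while the X share of members reaches 25.3%, against 17.2% for all pooled peaks.

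The sequence under the members was close to that of all pooled peaks. The median GC content of the windows was 42.6% for members and for all pooled peaks, and 39.6% in windows 500 bp to either side of the members. IDR members had 38.6%, as did all IDR peaks. The homeodomain sequence TAATTA was in 63 member windows (8.29%), against 9.12% of all pooled windows and 7.83% of the flanking ones. Among IDR members it was in 9 of 59 (15.3%), against 17.8% of all IDR windows and 7.63% of windows beside IDR members. GAGAGA was in 6.18% of member windows, against 5.42% of all pooled windows and 3.95% of flanking ones. It was in 7 of 59 IDR members (11.9%), against 7.58% of all IDR windows and 5.93% of windows beside IDR members.

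Among IDR members, CACACA was in 4 of 59 (6.78%), against 13.6% of all IDR windows and 5.08% of windows beside IDR members. CAGCTG was in none, against 3.90% of all IDR windows and 5.08% of windows beside IDR members. The shares of the other 9 motifs among all members were as follows. CACACA was in 10.7% of member windows (all pooled windows 11.1%, flanking windows 8.36%), CAGCTG in 5.39% (5.07%), GATAAG of GATA factors in 4.61% (5.88%), TGACTCA in 1.45% (0.96%), GGTTCGA, part of the tRNA internal promoter, in 1.32% (0.81%) and CACGTG in 1.18% (1.38%). CAGGTAG of Zelda was in 0.658% (0.637%), TATCGATA of DREF in 0.395% (0.82%) and GGTCACACT of M1BP in 0.132% (0.577%). GATAAG and CAGGTAG were at 5% and 1.25% in the flanking windows. Soft-masked (repeat) bases made up 16.8% of member windows and 16.3% of all pooled windows, and 23.1% of IDR member windows against 21.7% of all IDR windows. A match is a description of the letters, not of a bound site.

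The few peaks nearest the distance limit overlapped in signal between its 2 sides, though they are too few to compare the sides. The 3 members nearest the limit of 500 bp from a protein-coding TSS lay at 503 bp in asRNA:CR43723 (signal 52.9), at 509 bp in lncRNA:CR44466 (29.5) and at 512 bp in lncRNA:CR44741 (33.3). The 3 peaks nearest to it on the other side lay at 497 bp in asRNA:CR43833 (39.3), at 491 bp in lncRNA:CR44999 (48.8) and at 479 bp in asRNA:CR45171 (29.2). None of the 6 was in the IDR set.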

How the data were processed

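Per the labels, whole embryos of 1 line gave 2 ChIP-seq libraries. Per the deposited file lists, the authors called peaks on each replicate alone and on both pooled, against 1 control, on build dm6, and derived the IDR set from those 3 lists. Aligner, peak caller, versions and the threshold for IDR were not given in the sources used here. Each deposited signal is the peak caller's own value with no stated scale. The deposited −log10 q values of the pooled list share a common maximum at many strong peaks, so signal was used for ranks. The summit is the peak's start plus the deposited offset. Read depth is unknown.

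Summits were compared with the Ensembl release 115 annotation (FlyBase 6.54) and the Release 6 genome of RefSeq, whose coordinates are those of dm6, on the 6 arms 2L, 2R, 3L, 3R, 4 and X. Transposable elements and 481 mature miRNA products listed as genes were left out, and pseudogenes counted as noncoding. A replicate summit within 100 bp was a match. Percentages of peaks or genes have exact (Clopper-Pearson) 95% intervals, and densities exact Poisson 95% intervals. Both cover counting only, and neighbouring peaks are not independent. With 1 group of 2 samples, no test between conditions was possible and no p-value is given. Motif matches were sought on either strand, from 50 bases before to 50 after each summit. Named genes are those of the 25 strongest members, of the 4 strongest members of each kind other than long noncoding RNA, the 5 with most members, the 3 members on each side of the distance limit and those of a list of known noncoding genes. The genes with 2 or more IDR members, lncRNA:Vinr among them, were named after their values were seen. The members and lists were chosen with earlier results of these data known. Alternatives were other distances, windows and matches, pseudogenes left out, a stricter IDR set and each replicate left out. The code was tested on simulated peaks. The tables were made with pandas 2.3.3 and NumPy 2.4.6 under Python 3.11.15, intervals with SciPy 1.17.1 and plots with matplotlib 3.10.9.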

Additional observations from a re-analysis of the deposited data

How the results depend on the processing

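The count of members was between 683 and 789 with other distances to protein-coding TSS or with pseudogenes left out. Keeping 1 summit per interval could change nothing, since no interval held several members. It therefore does not check peaks that overlap without sharing both ends. The members' median signal and median GC content stayed within the 95% interval under every alternative computed for them. The share in the IDR set was 4.34% with its stronger 50% alone (all pooled peaks 3.12%). The IDR cannot be had from 1 replicate, so with either left out the share of members matched to the other's 1874 strongest peaks was taken in its place, which was 7.24 to 7.37% (all pooled peaks 6.12 and 5.96%). The share matched in both replicates was 21.6% within 50 bp, 48.6% within 200 bp and 62.2% by any overlap, against 20.9, 45.8 and 59.2% of all pooled peaks, and it ran from 56.1 to 65.8% with either replicate left out, where a match in 1 list suffices. The share near the noncoding TSS was 21.7% within 250 bp and 48.6% within 1000 bp by the change of distance itself. Without the 10 genes that hold 10 or more members, an alternative chosen after seeing the data, 563 members were left and that share was 42.5%. Leaving lncRNA:flam out, also chosen after seeing the data, gave 210.2 members per Mb of territory on X. Motif shares moved with window width in 13 of 22 cases. No paired analysis was possible because the labels give 1 group. Read depth is unknown, so weak peaks have no error of their own.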

Other observations

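The 99 ribosomal RNA genes with territory, 18836 bases in all, held no member. The sources used here do not say how reads that fit several copies were treated, so no statement on binding at these genes is made.

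Of the 56 IDR members matched in both replicates, 32 (57.1%) ranked higher in replicate 3, against 55.4% of all IDR peaks so matched. Over all 271 matched members, 128 ranked higher in replicate 3 and 143 in replicate 2.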
